A study of Bos taurus with 6 samples.

Results

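The collagen genes were taken as the rows of the deposited count table whose symbol has the form COL, a number, A and a number, which gave 43 of 20958 rows. Of these, 29 had at least 10 reads summed over the 6 libraries and are described here, and 14 did not and are called silent. The cells were BEND, a bovine cell line labelled as endometrial epithelium and grown in serum-containing medium. They were transfected with a synthetic mimic of bta-miR-200b, a microRNA, or with a negative-control mimic (NC), and each group has 3 poly(A)-selected RNA-seq libraries. The labels give both groups the same treatment entry, cell apoptosis, name no other agent, and give no dose, no time and no statement that replicates were separate cultures, so the p-values reflect variation among these 6 libraries, possibly technical in origin.

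Collagens are secreted proteins whose chains carry long glycine repeats and wind around each other into a rope-like helix. Fibrillar collagens (types I, II, III, V, XI, XXIV and XXVII) build the fibres of connective tissue, type IV collagen forms the sheet of the basement membrane under epithelia, type VI forms beaded filaments around cells, and other classes decorate fibrils or span the cell membrane. In the endometrium, interstitial collagen is laid down mainly by stromal cells, while the epithelium rests on a type IV network. miR-200b keeps cells epithelial by repressing the ZEB transcription factors, and the comparison asks which collagen transcripts differ when it is supplied in excess.

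Library totals ranged from 19212694 to 21129547 counts. The keratins of simple epithelia were abundant in NC libraries (KRT8 at 4494 and KRT19 at 3917 CPM, reads scaled to library size), but CLDN4 and GRHL2, which define many polarised epithelia, were at 0 reads in all 6 libraries and EPCAM was at 0.0502 CPM in the NC group. Fibroblast or stromal markers ranged widely in the NC libraries, with LUM at 842, DCN at 423 and PDGFRA at 243 CPM as the highest. FAP stood at 7.38, TWIST1 at 6.04, THY1 at 5.35, DPT at 0.182, PI16 at 0.0339 and TCF21 at 0 CPM. The leukocyte marker PTPRC and the endothelial marker CLDN5 were at 0, while CD14 stood at 3.13 and PECAM1 at 3 CPM in the NC group. The summed level of the 12 stromal markers was 1287 to 1507 CPM in the mimic libraries and 1535 to 1687 in the NC libraries, with 5 of 9 tested members called lower (adjusted p under 0.05 in edgeR's test), none higher and 1 (TCF21) at 0 reads. Of all tested genes 2.15% were called lower and 4.3% higher. By other tools, DESeq2 and limma-voom each called 0 stromal markers higher and 5 lower. An unadjusted p under 0.05 in edgeR's test, which 18.5% of all tested genes reached, gave 0 higher and 7 lower. The summed epithelial markers were at 10450 to 11870 CPM with the mimic and 8587 to 9304 with NC, with 6 of 7 tested members called higher, against 4.3% of all tested genes. Of these, CRB3, KRT7 and EPCAM (0.388, 0.215 and 0.0502 CPM in the NC group) passed the filter on low counts only through the mimic libraries. Another 5 epithelial markers were too low to test, so the 6 of 7 is not a fair comparison with all genes. Smooth muscle markers summed to 933 to 1106 CPM with the mimic and 985.7 to 1148 with NC. In the NC group ACTA2 stood at 891 CPM and MYH11 at 0. Of 5 tested smooth muscle markers 1 (LMOD1) was called higher and 0 lower, against 4.3% and 2.15% of all tested genes. Endothelial markers summed to 3.08 to 3.79 CPM with the mimic and 5.27 to 6.45 with NC. Leukocyte markers summed to 3.05 to 3.08 CPM with the mimic and 4.01 to 4.63 with NC. Of 2 tested endothelial markers 1 (PECAM1) was called lower, and of 2 tested leukocyte markers 1 (CD14), against 2.15% of all tested genes, with 0 higher in each. DESeq2 and limma-voom each called 1 endothelial and 0 leukocyte markers lower. The part of these differences in the collagen results was not tested, and in a bulk library fewer cells of a type and less RNA per cell cannot be told apart.

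BEND cells devoted a large share of their reads to collagen. Collagen genes held 2.68% to 2.91% of all counts in the NC libraries and 2.59% to 2.88% in the mimic libraries, so the ranges of the groups overlapped. COL1A2, a chain of type I collagen, had more reads than any other row of the table in the NC libraries, and its partner chain COL1A1 ranked 4. Type I chains made up 65.2% to 65.8% of the collagen reads in NC libraries and 66.7% to 67.6% in mimic libraries. Reads per gene are not corrected for transcript length here, so these are shares of reads and not of molecules. Among the 100 rows with most reads in the NC libraries, 7 were collagens.

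**Figure D1:**
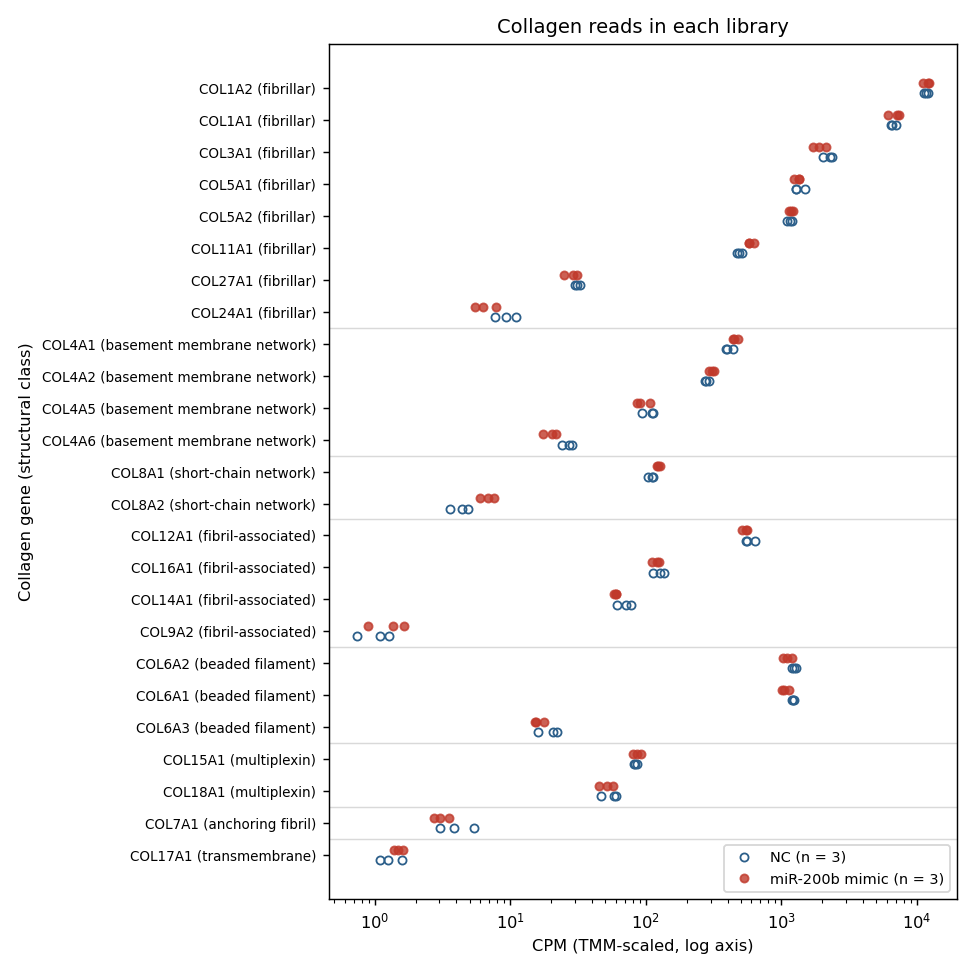
CPM (TMM-scaled, log axis) of the 25 tested collagens in each library, grouped by structural class, with NC libraries as open and mimic libraries as filled circles (n = 3 per group). The levels span from about 1 CPM for COL9A2 and COL17A1 to 11640 CPM for COL1A2 in the NC group, and the groups overlap for 19 of the 25 genes.

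Of the 29 collagens described, 25 passed the filter on low counts and were tested. Most of them were not called. COL11A1 and COL8A2 rose, COL4A6 and COL24A1 fell, and the other 21 did not reach the threshold (p adjusted by Benjamini-Hochberg over all 12217 genes tested, 0.05, from the quasi-likelihood test of edgeR). The share called was 16% of the tested collagens, against 6.45% of all tested genes, of which 4.3% were higher and 2.15% lower. At an unadjusted p under 0.05 the figures were 11 of 25 collagens, or 44%, against 18.5% of all tested genes. The tested collagens had a median NC level of 110 CPM against 30.5 CPM for all tested genes, and the part of this difference in read depth in their share of calls was not tested. CPM values of the groups did not overlap for 6 of the 25 collagens, or 24%, against 21.8% of all tested genes, a share near the background. Of these 6, 3 were higher and 3 lower with the mimic, and the corresponding shares of all tested genes were 11.4% and 10.4%. The median log2 fold change was −0.08 over the 25 collagens and 0.00090 over all tested genes, with 11 collagens above 0 and 14 below. Standard errors (SE) of the log2 fold changes ran from 0.0665 to 0.311, and 18 of the 25 had a 95% interval inside −0.5 to 0.5.

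The calls changed when single libraries were left out, as did those over all genes. Without NC replicate 1, edgeR called 0 collagens, with 8 at an unadjusted p under 0.05, and no other tool was run on those 5 libraries. Over all genes the test then called 275 higher and 93 lower, against 525 and 263 with all libraries. The log2 fold changes without that library were 0.27 for COL11A1, 0.55 for COL8A2, −0.41 for COL4A6 and −0.38 for COL24A1, in the direction seen with all 6 libraries. Without mimic replicate 2 only COL11A1 remained called, and over all genes 322 were higher and 82 lower. Without NC replicate 3 only COL11A1 and COL8A2 did, with 406 and 153 over all genes. Without mimic replicate 3 the test called 7 collagens, 2 higher and 5 lower, while all-gene calls rose to 731 higher and 414 lower. It also called 7 without NC replicate 2, again 2 higher and 5 lower, with 588 and 390 over all genes.

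**Figure D2:**
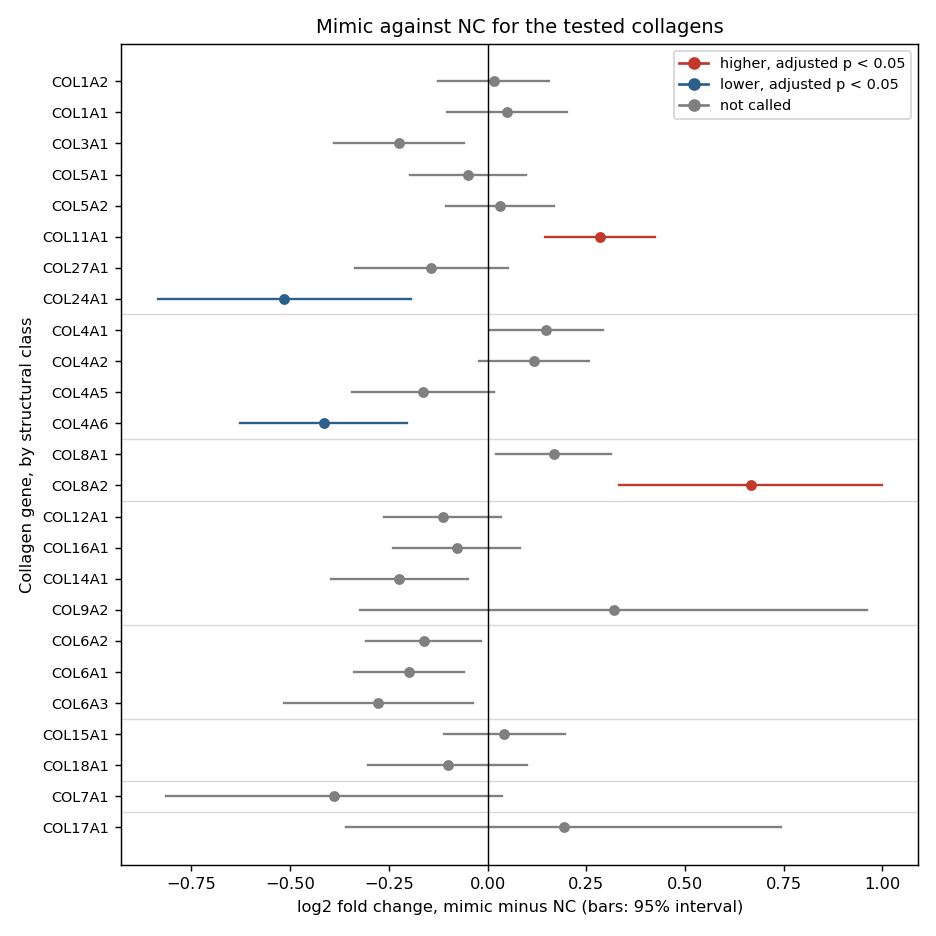
Log2 fold change (mimic minus NC) of each tested collagen with its 95% interval, grouped by structural class in the same order as the plot of CPM. COL11A1 at 0.28 and COL8A2 at 0.67 were called higher, COL4A6 at −0.41 and COL24A1 at −0.51 were called lower, and the other intervals belong to genes that were not called.

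Type I collagen, the main fibre of skin, bone and tendon, differed little. COL1A2 stood at 12075, 10994 and 12234 CPM in mimic replicates 1 to 3 and at 11744, 11197 and 11981 CPM in NC replicates 1 to 3. COL1A1 stood at 7347, 6144 and 7066 CPM with the mimic and at 6488, 6422 and 6958 CPM with NC. For both chains mimic replicate 2 was the lowest of the 6 libraries, and the groups overlapped. The log2 fold change was 0.02 ± 0.07 (SE) for COL1A2, with a 95% interval of −0.13 to 0.16, and 0.05 ± 0.07 for COL1A1, with an interval of −0.10 to 0.20. The ratio of COL1A2 to COL1A1 reads was 1.72 ± 0.0734 with the mimic and 1.76 ± 0.046 with NC (mean ± SD, n = 3 each).

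COL3A1 encodes type III collagen, which mixes with type I in distensible tissues. It had 1908, 1697 and 2129 CPM in the mimic libraries and 2367, 2033 and 2299 CPM in the NC libraries. Mimic replicate 3 lay above NC replicate 2, so the groups overlapped. The log2 fold change was −0.22 ± 0.08 (adjusted p 0.103 in edgeR's test). It passed without a filter on low counts (adjusted p 0.0352), without mimic replicate 3 (0.00496) and without NC replicate 2 (0.00845), each time in edgeR's test. Calls over all genes rose in these fits too, without the filter to 622 higher and 341 lower, from 525 and 263. In proportion to COL1A1 reads, COL3A1 stood at 0.279 ± 0.021 with the mimic against 0.337 ± 0.0249 with NC, without overlap between the libraries, and the exact permutation test gave its smallest possible two-sided p of 0.1. This ratio was 1 of 11 chosen after values were seen, and its p was 0.22 after Benjamini-Hochberg adjustment over them.

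Types V and XI collagen are minor fibrillar collagens that start fibrils and limit their width, and their chains can assemble with each other. COL5A1 had 1338, 1247 and 1344 CPM with the mimic and 1287, 1291 and 1489 CPM with NC. COL5A2, which lies next to COL3A1 in the RefSeq gene table (assembly ARS-UCD2.0), had 1168, 1129 and 1222 CPM with the mimic and 1153, 1095 and 1194 CPM with NC. Both overlapped between groups, with log2 fold changes of −0.05 ± 0.07 and 0.03 ± 0.07. COL11A1, the chain best known from cartilage, was different. Its level was 581, 577 and 632 CPM in the mimic libraries and 482, 473 and 514 CPM in the NC libraries, so each mimic library was above each NC library. COL11A1 rose 1.22-fold, a log2 fold change of 0.28 ± 0.07 (adjusted p 0.01 in edgeR's test). COL11A1 overlaps a pseudogene in the RefSeq gene table, and reads of the 2 may not be told apart. Its call held in 13 of 14 alternative analyses and was lost without NC replicate 1, at an adjusted p of 0.0899 in edgeR's test. The ratio of COL11A1 to COL5A1 reads, which reuses these counts, was 0.456 ± 0.0191 with the mimic and 0.362 ± 0.0153 with NC, without overlap. Its exact permutation p was 0.1, the smallest possible, and 0.22 after adjustment over the 11 ratios, which were chosen after values were seen.

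The fibrillar chains COL24A1 and COL27A1, known from developing bone and cartilage in mice, were scarcer. COL24A1 had 5.49, 6.25 and 7.82 CPM with the mimic and 11, 7.68 and 9.26 CPM with NC. Mimic replicate 3 was just above NC replicate 2, so the groups overlapped by 1 pair of libraries. COL24A1 fell by 30.0%, a log2 fold change of −0.51 ± 0.16, and its adjusted p of 0.0471 was close to the threshold of edgeR's test. It lost its call in 7 of 14 alternatives, namely DESeq2 (adjusted p 0.0572), limma-voom (0.0558), library totals as the scaling (0.0509) and the omission of mimic replicate 1 (0.194), mimic replicate 2 (0.201), NC replicate 1 (0.346) or NC replicate 3 (0.113). COL24A1 overlaps 1 protein-coding gene and 2 long non-coding RNAs in the RefSeq table, and whether counting used strand is not known from the labels or headers. COL27A1 averaged 28.3 ± 3.09 CPM against 31.3 ± 1.13 (mean ± SD, n = 3 each) and was not called, at an adjusted p of 0.459 in edgeR's test.

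Type IV collagen is the meshwork of basement membranes, and its genes lie in head-to-head pairs, COL4A1 with COL4A2, COL4A3 with COL4A4 and COL4A5 with COL4A6. The ubiquitous pair had the most reads. COL4A1 had 478, 437 and 447 CPM with the mimic and 395, 393 and 441 CPM with NC, and COL4A2 had 316, 293 and 308 CPM with the mimic and 279, 272 and 294 CPM with NC. In both, mimic replicate 2 was below NC replicate 3 and the other mimic libraries were above every NC library. The log2 fold changes were 0.15 ± 0.07 and 0.12 ± 0.07, with adjusted p-values of 0.248 and 0.373 in edgeR's test, so neither was called.

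The X-linked pair of type IV genes had lower mean levels with the mimic. COL4A5, a chain of kidney and epithelial basement membranes, had 90.3, 85.5 and 106 CPM in the mimic libraries and 110, 93.3 and 113 CPM in the NC libraries, with overlap. Its log2 fold change was −0.16 ± 0.09 (adjusted p 0.331 in edgeR's test), which became 0.0416 without mimic replicate 3. COL4A6, its neighbour, had 20.4, 17.3 and 21.9 CPM with the mimic and 26.9, 24.2 and 28.3 CPM with NC, and each mimic library was below each NC library. COL4A6 fell to 0.75 of its NC level, a log2 fold change of −0.41 ± 0.10 (adjusted p 0.0131 in edgeR's test). Leaving out mimic replicate 2, NC replicate 1 or NC replicate 3 raised the adjusted p to 0.127, 0.0687 or 0.0808 in the same test, and the call held in the other 11 alternatives. Reads of COL4A5 per read of COL4A6 were 4.74 ± 0.271 with the mimic and 3.97 ± 0.119 with NC, without overlap. The exact permutation p was 0.1, the smallest possible, and 0.22 after adjustment over the 11 ratios. The ratio of COL4A1 to COL4A2 was 1.48 ± 0.0317 against 1.45 ± 0.0436 and overlapped. The third pair was nearly absent, with COL4A4 at 9 reads in all and COL4A3 at 0.

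**Figure D3:**
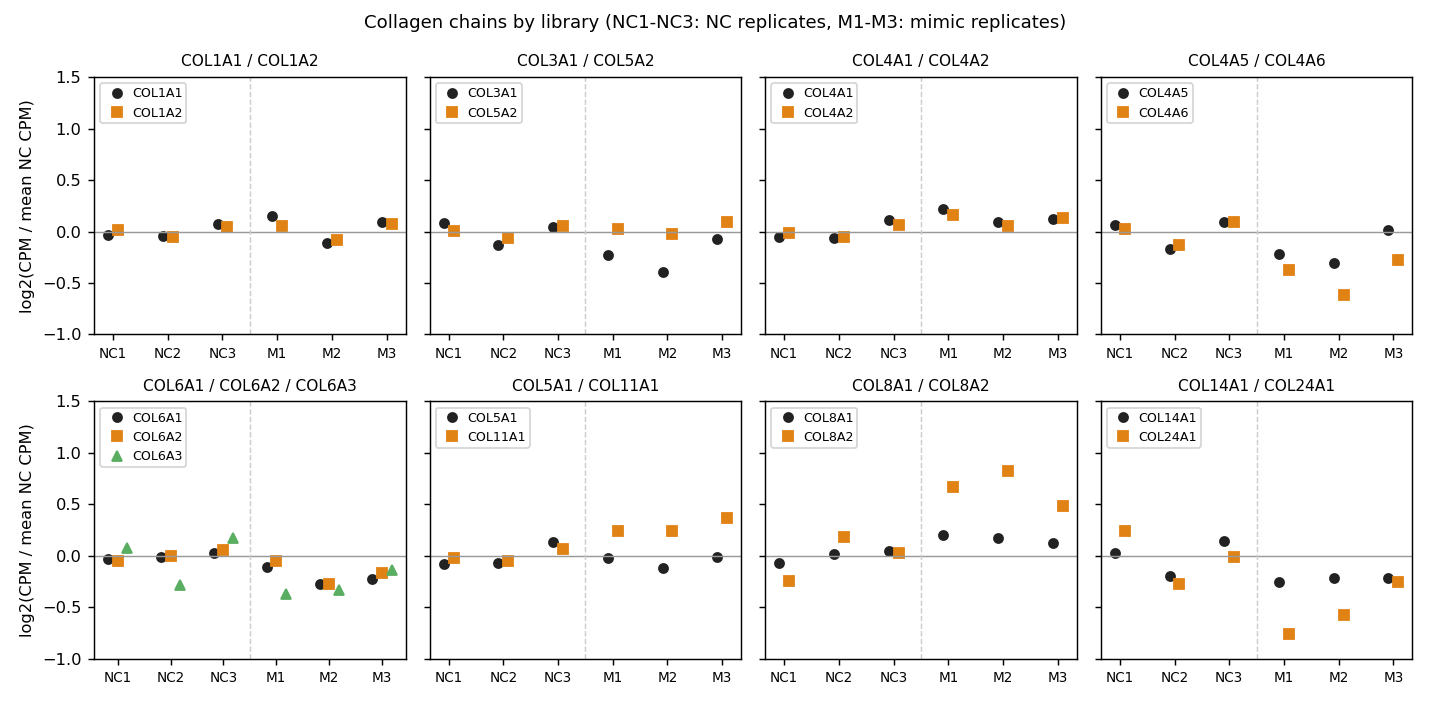
Log2 ratio of each library's CPM to the mean NC CPM for selected collagen chains, 3 NC and 3 mimic libraries per panel (NC1 to NC3 and M1 to M3). COL11A1 and COL8A2 sit above all NC libraries in each mimic library, COL4A6 sits below them, and COL1A1 and COL1A2 move together around 0.

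Type VIII collagen is a short-chain, network-forming collagen known from the basement membranes of the cornea and of blood vessels, and its transcripts had more reads with the mimic. COL8A2 had 6.79, 7.56 and 6 CPM in the mimic libraries and 3.6, 4.86 and 4.37 CPM in the NC libraries, and every mimic library was above every NC library. COL8A2 rose 1.59-fold, or by 0.67 ± 0.16 on the log2 scale (adjusted p 0.0116 in edgeR's test). This was the largest difference among the tested collagens, on 673 reads in all, and leaving out mimic replicate 2 or NC replicate 1 raised the adjusted p to 0.0949 or 0.106 in that test. COL8A1, the more abundantly read chain, had 126, 124 and 120 CPM with the mimic and 104, 111 and 113 CPM with NC. Its groups did not overlap either, but at a log2 fold change of 0.17 ± 0.07 it was not called (adjusted p 0.185 in edgeR's test). COL10A1, the other short-chain collagen and a marker of hypertrophic cartilage, had no reads.

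Type VI collagen joins a COL6A1, a COL6A2 and usually a COL6A3 chain in each filament unit. COL6A1 had 1131, 1009 and 1046 CPM with the mimic and 1197, 1214 and 1247 CPM with NC, and each mimic library was below each NC library. COL6A2, which neighbours COL6A1, had 1197, 1025 and 1104 CPM with the mimic and 1194, 1235 and 1291 CPM with NC, with overlap through mimic replicate 1. The log2 fold changes were −0.20 ± 0.07 and −0.16 ± 0.07, and the adjusted p-values were 0.0834 and 0.206 in edgeR's test. COL6A1 was thus the closest of the collagens that were not called; its adjusted p was 0.038 with DESeq2, and 0.033 without mimic replicate 1 in edgeR's test. COL6A3 had 15.2, 15.5 and 17.7 CPM with the mimic and 20.6, 16.1 and 22.1 CPM with NC, a log2 fold change of −0.28 ± 0.12 that was not called (adjusted p 0.186), and whose adjusted p in edgeR's test reached 0.0489 when mimic replicate 3 was left out and 0.0166 when NC replicate 2 was. COL6A3 therefore had 0.0153 ± 0.00178 reads per COL6A1 read with the mimic and 0.016 ± 0.00245 with NC. COL6A5, a chain that can replace COL6A3, had no reads.

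Fibril-associated collagens attach to the surface of fibrils and were not called. COL14A1 had 58.6, 60.2 and 60.2 CPM in the mimic libraries and 71, 60.9 and 77.2 CPM in the NC libraries. The groups did not overlap, although NC replicate 2 was within 1 CPM of mimic replicates 2 and 3, and the log2 fold change was −0.22 ± 0.08 (adjusted p 0.128 in edgeR's test), or 0.0119 without NC replicate 2. COL12A1, which bridges fibrils under mechanical load, had 548, 557 and 514 CPM with the mimic and 560, 551 and 642 CPM with NC, with overlap. Its log2 fold change was −0.11 ± 0.07 (adjusted p 0.432 in edgeR's test). COL16A1 averaged 119 ± 7.29 against 125 ± 11 CPM, and the cartilage chain COL9A2 1.3 ± 0.381 against 1.04 ± 0.273 CPM. Among the basement membrane zone proteoglycan collagens, COL15A1 stood at 86.3 ± 5.49 against 83.7 ± 1.9 CPM and COL18A1, the source of endostatin, at 51.1 ± 5.99 against 54.8 ± 7.11 CPM, each with overlapping libraries. COL7A1, which forms the anchoring fibrils of stratified epithelia, stood at 3.1 ± 0.385 against 4.08 ± 1.19 CPM. COL17A1, the transmembrane collagen of hemidesmosomes, stood at 1.49 ± 0.117 against 1.31 ± 0.248 CPM. Intervals were wide for these low genes, from −0.82 to 0.04 for COL7A1, −0.36 to 0.74 for COL17A1 and −0.32 to 0.96 for COL9A2 on the log2 scale.

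Summed over each class, as a description without a test, fibrillar collagens made up 85.4% of collagen CPM with the mimic and 84.4% with NC, at 23645 ± 1580 and 23529 ± 963 CPM. The beaded filament class averaged 2187 ± 148 CPM with the mimic and 2479 ± 75 CPM with NC, and each of its mimic library sums (2343, 2050 and 2168) was below each NC sum (2412, 2465 and 2560). Most of that class sum came from COL6A1 and COL6A2, neither of them called. The short-chain network class was at 130 ± 3.61 against 114 ± 5.22 CPM, with no overlap in the other direction. COL8A1, which was not called, made up most of it, at 123 against 110 CPM. The basement membrane network class was at 874 ± 36.5 against 823 ± 48.3 CPM and the fibril-associated class at 720 ± 16.5 against 781 ± 67 CPM.

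Another 4 collagens were above the minimum of 10 reads but too low to test. COL9A3 had 14 reads in the mimic group and 14 in the NC group, COL26A1 had 10 and 12, COL11A2 had 18 and 9, and COL2A1, the main collagen of cartilage, had 5 and 5. With its 10 reads COL2A1 was just inside the minimum, and COL4A4, with 7 reads over the mimic and 2 over the NC libraries, was just outside. The other silent collagens with any read were COL20A1 with 6, COL13A1 with 2, COL5A3 with 2 and COL23A1 with 1. The remaining 9 had none in any library: COL4A3, COL6A5, COL9A1, COL10A1, COL19A1, COL21A1, COL22A1, COL25A1 and COL28A1. A count of 0 over a group allows up to 0.0487 CPM with the mimic and 0.0503 CPM with NC, taking 3 counts as the limit, which covers counting error only.

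**Figure D4:**
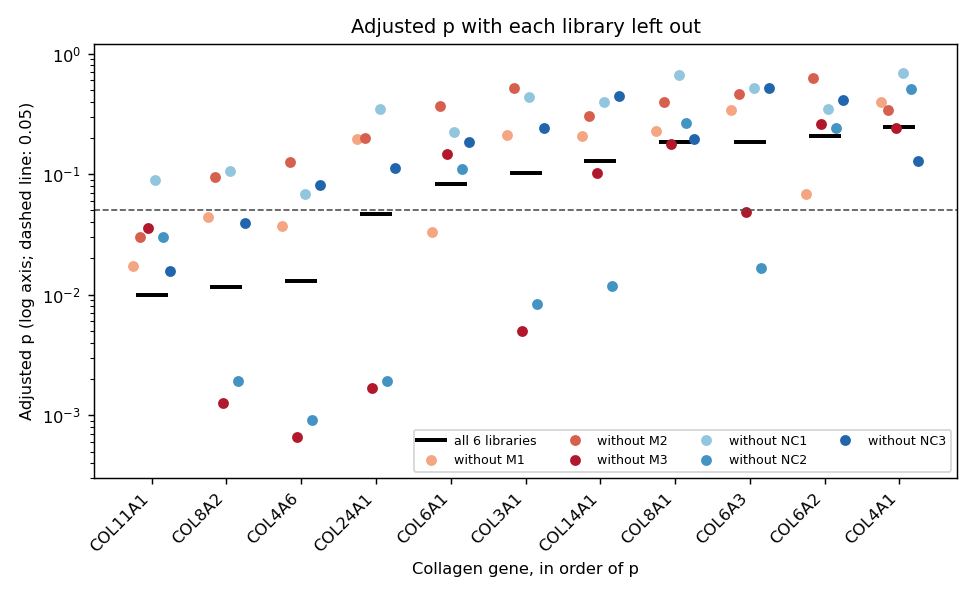
Adjusted p (log axis) of the 11 collagens with the smallest p, with all 6 libraries (bars) and with each library left out in turn (points), against the 0.05 threshold (dashed). Without NC replicate 1 (light blue) every point lies above the threshold, while omission of mimic replicate 3 or NC replicate 2 brings several genes below it.

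Newly made collagen chains are hydroxylated, folded and exported by a set of endoplasmic reticulum proteins. Of 22 tested genes of this list, none rose and 2 fell, against 4.3% of all tested genes higher and 2.15% lower. The list median was −0.08, against 0.00090 over all tested genes. At an unadjusted p under 0.05, which 18.5% of all tested genes reached, the list had 0 higher and 4 lower genes, and both DESeq2 and limma-voom called 0 higher and 2 lower. CRTAP, a cartilage-associated protein that works with the prolyl 3-hydroxylase, fell from 278 ± 6.92 to 216 ± 6.72 CPM (log2 fold change −0.36 ± 0.07, adjusted p 0.00101 in edgeR's test). SEC23A, a coat protein of the vesicles that carry procollagen and a known miR-200 target, fell from 199 ± 9.17 to 156 ± 11.5 CPM. Both calls held in all 14 alternatives. Next by p were P4HA2 and FKBP10, at log2 fold changes of −0.18 ± 0.06 and −0.17 ± 0.07. Neither was called (adjusted p 0.11 and 0.187 in edgeR's test). The collagen chaperone SERPINH1 stood at 1202 CPM against 1272 and the prolyl hydroxylase subunit P4HB at 1366 against 1446, neither of them called.

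Outside the cell, propeptides are cut off and the fibrils are cross-linked. Of 13 tested genes of this list none rose and 3 fell, with a median of −0.15, where 4.3% of all tested genes were higher and 2.15% lower. An unadjusted p under 0.05 (18.5% of all tested genes) gave 0 higher and 6 lower genes, and DESeq2 and limma-voom each gave 0 higher and 3 lower. TGM2, a cross-linking transglutaminase, fell from 45.1 ± 0.233 to 32.2 ± 1.79 CPM and kept its call in all 14 alternatives. LOXL1, a lysyl oxidase-like enzyme, fell from 354 ± 11.4 to 294 ± 34.9 CPM, and PCOLCE, which enhances C-propeptide cleavage, from 50.3 ± 1.57 to 40.8 ± 4.89 CPM. Their adjusted p-values of 0.0361 and 0.04 in edgeR's test rose to 0.272 and 0.294 without mimic replicate 2 and to 0.122 and 0.183 without NC replicate 1. They also lost their calls without NC replicate 3, at 0.0656 and 0.115, and PCOLCE without mimic replicate 1, at 0.077. The lysyl oxidase LOX and the C-proteinase BMP1 were not called, at log2 fold changes of −0.15 ± 0.08 and −0.03 ± 0.07.

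Cells bind collagen through integrins and discoidin domain receptors. Of 7 tested receptors 1 rose and 0 fell, beside 4.3% higher and 2.15% lower over all tested genes. An unadjusted p under 0.05 gave 2 higher and 1 lower (18.5% of all tested genes), and DESeq2 and limma-voom each called 1 higher and 0 lower. ITGA2, the alpha chain of a collagen-binding integrin, rose from 11.6 ± 1.12 to 23.5 ± 2.41 CPM, a log2 change of 1.02 ± 0.11. ITGA2 overlaps MOCS2 in the RefSeq table, so reads of that neighbour may be included. The related chain ITGA10 stood at 7.37 against 5.3 CPM and was not called, and the receptor kinases DDR1 and DDR2 at log2 fold changes of −0.06 ± 0.08 and −0.19 ± 0.09 were not called. ITGA11, GP6, LAIR1 and OSCAR had no reads.

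Genes of collagen turnover had the lowest median of the 6 lists, −0.21 over 10 tested members. Beside degrading enzymes, the list holds the protease inhibitors TIMP1, TIMP2 and TIMP3. Of the 10, 0 were higher and 3 lower, where all tested genes had 4.3% higher and 2.15% lower. An unadjusted p under 0.05 (18.5% of all tested genes) gave 1 higher and 5 lower, and DESeq2 and limma-voom each gave 0 and 3. The 1 higher was TIMP3, at a log2 fold change of 0.22 ± 0.08, and TIMP2, at −0.20 ± 0.07, was among the 5 lower. MMP14, a membrane-anchored collagenase, fell from 536 ± 27.7 to 414 ± 38.9 CPM (log2 fold change −0.37 ± 0.07) and kept its call in all 14 alternatives, although it overlaps RBM23. MMP2, a gelatinase that MMP14 activates, fell from 2213 ± 16.9 to 1882 ± 120 CPM, and the collagen-cleaving cathepsin CTSK from 1374 ± 92.1 to 1133 ± 88.8 CPM. MMP2 and CTSK lost their calls when single libraries were left out, MMP2 in 5 and CTSK in 4 of the 6 omissions, with highest adjusted p-values of 0.229 and 0.16 in edgeR's test. The interstitial collagenase MMP1 was scarce, at 0.714 CPM against 1.08, and was not called (adjusted p 0.405 in edgeR's test). FAP, also a stromal marker, was not called either. MMP13, a collagenase of cartilage, had no reads.

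Matrix partners of collagen moved in both directions. Of 24 tested members 7 rose and 4 fell, with a median of 0.00014, beside 4.3% higher and 2.15% lower over all tested genes. At an unadjusted p under 0.05 (18.5% of all tested genes) 8 were higher and 8 lower, and DESeq2 and limma-voom each called 7 and 4. THBS1 at 0.58 ± 0.08, FN1 (fibronectin) at 0.48 ± 0.08, the basement membrane proteoglycan AGRN at 0.47 ± 0.08 and CCN2 (CTGF in the table), a matricellular growth factor modulator, at 0.46 ± 0.07 led the rises on the log2 scale. Of the laminin chains in the list, which share basement membranes with type IV collagen, LAMA4, LAMB1 and LAMA5 rose by 0.40 ± 0.09, 0.30 ± 0.06 and 0.30 ± 0.08, while LAMC1 at 0.13 ± 0.07 and LAMB2 at −0.02 ± 0.08 were not called. The other basement membrane members HSPG2, NID1 and NID2 were not called either, at 0.31 ± 0.10, 0.02 ± 0.09 and 0.05 ± 0.07. The 4 called lower were the leucine-rich proteoglycans PRELP at −0.46 ± 0.10 and DCN at −0.42 ± 0.08, the matricellular THBS2 at −0.37 ± 0.10 and the matrix protein TGFBI at −0.30 ± 0.07. The related proteoglycans LUM, BGN and FMOD stood at −0.15 ± 0.07, −0.16 ± 0.07 and −0.18 ± 0.07 and were not called. LAMB1 and LAMA5 lost their calls without NC replicate 1 (adjusted p 0.0577 and 0.227 in edgeR's test) and LAMA5 also without mimic replicate 1 (0.167). THBS2 lost its call without mimic replicate 2 (0.258), NC replicate 1 (0.0759) or NC replicate 3 (0.174), and TGFBI without mimic replicate 2 (0.0671) or NC replicate 1 (0.0525). DCN is also one of the stromal markers, and THBS1 overlaps FSIP1.

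Growth factors, SMADs and transcription factors with known links to collagen genes or to the mesenchymal state were mostly not called. Of 21 tested, 1 rose, 2 fell and 18 did not pass, with a median of −0.05, and over all tested genes 4.3% were higher and 2.15% lower. At an unadjusted p under 0.05 (18.5% of all tested genes) 2 were higher and 4 lower, and by DESeq2 and by limma-voom 1 was higher and 2 lower. TGFB2, a ligand of the TGF-beta pathway that induces collagen, rose from 31.6 ± 3.37 to 42.6 ± 3.38 CPM. The repressors ZEB1 and SNAI2 fell by 27.1% and 25.1%, and SNAI2 lost its call without mimic replicate 2 (adjusted p 0.0642) or NC replicate 1 (0.057) in edgeR's test. ZEB2 was not called, at a log2 fold change of −0.44 ± 0.16 (adjusted p 0.12 in that test). Nor were SOX9, at 0.29 ± 0.13 (adjusted p 0.222 in the same test), and TGFB3, another ligand of the TGF-beta pathway, at −0.36 ± 0.17 (0.239). SMAD3 and TGFB1, central to the same pathway, stood at log2 fold changes of −0.05 ± 0.07 and 0.04 ± 0.08.

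**Figure D5:**
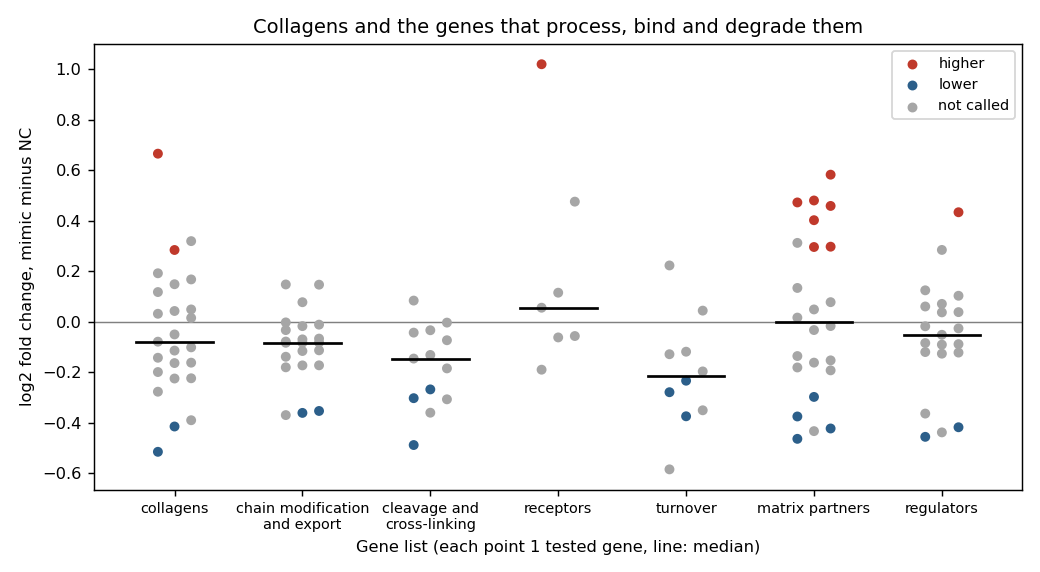
Log2 fold change (mimic minus NC) of each tested gene among the collagens and 6 lists of genes that process, mature, bind, turn over, accompany or regulate them, with calls in colour and the median of each list as a line. The turnover list includes protease inhibitors. The medians lie between −0.21 for turnover and 0.06 for receptors, and ITGA2, at 1.02, is the highest point.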

How the data were processed

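The authors deposited raw counts per gene and library, per the file headers. The submitters' processing notes list Trimmomatic, HISAT2 and HTSeq, and the labels' protocols name a stranded poly(A) kit. Build, annotation and strand setting were not given in the sources used here, and no coordinates are printed. By GeneID, 97.8% of rows and all 43 collagens matched a RefSeq gene table (ARS-UCD2.0), which served for names, neighbours and overlaps. Symbols stored as dates (26) were restored through it.

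filterByExpr of edgeR, with a minimum count of 10 and a minimum total of 15, left 12217 genes. CPM used TMM-scaled library sizes (factors 0.983 to 1.01). Groups were compared with the quasi-likelihood F test of edgeR 4.0.16 (with limma 3.58.1 under R 4.3.3), robust, two-sided, with group as the factor and Benjamini-Hochberg adjustment over all tested genes, threshold 0.05. Standard errors were obtained as the log2 fold change over the root of the F statistic. The method was tested on simulated data. Chain ratios, 11 in all, were chosen after values were seen, and compared by exact permutation over libraries. No such p can fall below 0.1, and after Benjamini-Hochberg adjustment the lowest p was 0.22.

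Alternatives were RLE, upper quartile and library-total scaling, no filter, a filter at 1 CPM in 3 libraries, limma-voom, DESeq2 1.42.0, a block for the replicate number, and each library left out. Collagens named with values in every library are those called, the 8 with the highest mean CPM and the 6 with the next smallest p. COL4A1, COL4A2 and COL4A5 were added to complete pairs. Members and lists were chosen with earlier results of these data known.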

Additional observations from a re-analysis of the deposited data

How the results depend on the processing

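The 2 higher and 2 lower collagens gave the same counts with RLE and upper quartile scaling, the stricter filter and DESeq2 (there with COL6A1 in place of COL24A1). The count of lower collagens was 3 without a filter, 1 with library totals and 1 with limma-voom. With a library left out, 0 to 2 collagens were higher and 0 to 5 lower. Over all genes 275 to 731 were higher and 82 to 414 lower, and over the collagen pathway lists 7 to 12 were higher (9 with all libraries) and 7 to 16 lower (14). With the replicate block, 816 genes were higher and 496 lower, against 525 and 263 without it, and 5 collagens were lower, with COL3A1 (adjusted p 0.0101 in edgeR's test), COL6A1 (0.0299) and COL14A1 (0.0453) gained. Whether the titles' numbers mark a pairing is not stated. Same-numbered libraries correlated at −0.0515, 0.128 and 0.189 in their deviations from the group means, and not every library correlated best with its own number. With 3 libraries per group these deviations sum to 0 for each gene, so the correlations cannot decide it. Class log2 ratios of mimic to NC ranged, with a library left out, from −0.0268 to 0.062 for fibrillar, 0.0468 to 0.134 for basement membrane, 0.15 to 0.214 for short-chain, −0.171 to −0.0462 for fibril-associated, −0.234 to −0.136 for beaded filament, −0.575 to −0.148 for anchoring fibril, 0.0404 to 0.334 for transmembrane and −0.0725 to 0.0195 for multiplexin collagens. Signs turned for genes near 0 that were not called in any alternative. With a library left out, log2 fold changes ranged from −0.0034 to 0.0892 for COL15A1, −0.0043 to 0.122 for COL1A1, −0.0158 to 0.0628 for COL1A2, −0.0882 to 0.0228 for COL5A1 and −0.0046 to 0.0615 for COL5A2. The cause was not tested. Among the tested collagens, precision was lowest for 3 scarce ones, COL7A1, COL17A1 and COL9A2, with standard errors of 0.206, 0.266 and 0.311 on the log2 scale.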
